A study of Mus musculus with 8 samples.

Results

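The respiratory chain passes electrons from NADH and succinate to oxygen and pumps protons across the inner mitochondrial membrane, and the ATP synthase uses the returning protons to make ATP. The chain has 4 complexes, and complex II is the only one of them whose subunits are all encoded in the nucleus. The others, and the ATP synthase, combine nuclear subunits with subunits read from the mitochondrial genome, so that 2 genomes have to be expressed for 1 machine. In macrophages the chain supplies ATP and reactive oxygen, and its use changes when the cells are activated.

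The genes were taken by symbol. They are the protein-coding genes whose mouse symbols begin with Nduf (complex I, without the Ndufaf assembly factors), the genes Sdha to Sdhd (complex II), Uqcr and Cyc1 (complex III, with Uqcrc1 left out by the rule), Cox4 to Cox8 (complex IV), Atp5 (ATP synthase), and the mitochondrial mt-Nd, mt-Cytb, mt-Co and mt-Atp genes. Of 54532 gene identifiers in the deposited tables, 99 met this rule, and 13 identifiers with a matching symbol but a non-coding type were left out. The 99 identifiers carried 98 symbols, since Atp5o was listed under 2 identifiers. The nucleus encoded 86 of them, with 38 in complex I, 4 in complex II, 8 in complex III, 18 in complex IV and 18 in the ATP synthase. The mitochondrial genome encoded 13, with 7 in complex I, 1 in complex III, 3 in complex IV and 2 in the ATP synthase. Counts were high enough for testing in 94, of which 81 were nuclear and 13 mitochondrial. The 5 that were not tested were Cox4i2, Cox7b2, Cox8b, Cox8c and the second Atp5o identifier, which lies wholly within other exons, and 3 of these 5 had no count in any library.

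Polyadenylated RNA was sequenced from bone marrow-derived macrophages (BMDMs) of wild-type (WT) mice and of Trex1-/- mice (Trex1-KO), aged 6 to 8 weeks, which lack an exonuclease that degrades cytosolic DNA. BMDMs were grown for 7 days in medium conditioned by L929 cells, then held for 12 h in DMSO (WT and Trex1-KO), in 500 nM H151 (Trex1-KO+H151) or in SN-011 (Trex1-KO+SN-011). H151 and SN-011 are small-molecule antagonists of STING, the adaptor that signals downstream of cytosolic DNA, and the dose of SN-011, which is not in the labels, was the same per the study methods. Each of the 4 groups held 2 libraries, which the study describes as independent experiments. WT mice were bought and Trex1-KO mice were bred in house, so the source of the mice and the genotype cannot be told apart, and the SN-011 libraries are later records than the others, so that handling and treatment cannot be told apart either.

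Total counts ran from 11845470 to 17284863 per library, and 14591 genes were tested. Levels are given as CPM, which are counts scaled to library size, after normalization by the trimmed mean of M-values (TMM). The genes described here took between 1.68% and 2.15% of all counts. The 7 macrophage markers, which include Adgre1, Csf1r and Cd68, summed to 29638 to 31878 CPM over the 8 libraries. The 6 stromal markers summed to 2099 to 2300 CPM in WT against 862 to 1062 CPM in Trex1-KO, 1105 to 1221 CPM in Trex1-KO+H151 and 933 to 1123 CPM in Trex1-KO+SN-011. The 5 neutrophil markers summed to 5.63 to 6.11 CPM in WT and to 29.0 to 50.5 CPM in the other groups, most of them from S100a8 and S100a9, while Ly6g, Mpo and Elane each stayed under 1 CPM. Of the 5 T cell markers only Cd4 reached 1 CPM, at 33.3 to 33.9 CPM in WT and 18.2 to 21.7 CPM in the others, and Cd3e, Cd3d, Cd3g and Cd8a stood at 0 to 0.255 CPM. The stromal and neutrophil sums and Cd4 moved with the difference between WT and the Trex1-KO groups, and their part in the results below was not tested. In bulk RNA, fewer mitochondria or transcripts per cell and fewer cells with a high content of them cannot be told apart.

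What a count means for the mitochondrial genes depends on the nuclear genome, which carries copies of mitochondrial DNA. The authors counted uniquely mapped read pairs, so a pair whose sequence also occurs elsewhere has no unique place. The transcripts of all 99 identifiers were therefore compared with every annotated mouse transcript. At least 99% identity over more than 50% of the length was found for 6 mitochondrial genes (mt-Co2, mt-Co3, mt-Atp6, mt-Nd3, mt-Nd4 and mt-Nd4l), all to pseudogenes in one stretch of chromosome 1, and for 1 nuclear gene, the ATP synthase subunit gene Atp5l, whose longest match was the pseudogene Atp5l2-ps. The sequences below show why such reads can lack a unique place. Each pair gives a mitochondrial stretch and its nuclear counterpart (mouse build GRCm38, from the GENCODE transcripts), and capitals mark the bases that differ.

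mt-Co2 (chrM:7323-7382, plus strand): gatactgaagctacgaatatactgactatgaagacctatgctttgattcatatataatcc

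Gm28661 (chr1:24615196-24615255, minus strand): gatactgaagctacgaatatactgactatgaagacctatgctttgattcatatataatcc

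mt-Nd3 (chrM:9459-9518, plus strand): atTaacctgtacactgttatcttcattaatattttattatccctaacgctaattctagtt

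Gm28438 (chr1:24613060-24613119, minus strand): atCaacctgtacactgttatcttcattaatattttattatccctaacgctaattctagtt

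mt-Co1 (chrM:5351-5410, plus strand): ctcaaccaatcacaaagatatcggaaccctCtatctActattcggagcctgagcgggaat

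Gm13340 (chr2:22589565-22589624, minus strand): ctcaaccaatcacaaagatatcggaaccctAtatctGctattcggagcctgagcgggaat

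The mt-Co2 stretch has no difference, and its 681 aligned bases hold 0 mismatches to Gm28661. For mt-Nd3 the only mismatch in 345 aligned bases to Gm28438 is the one shown. The mt-Co1 alignment to Gm13340 on chromosome 2 holds 37 mismatches in 1545 bases, so most of its reads can be placed. No annotated copy of at least 97% identity was found for mt-Nd1, mt-Nd2, mt-Nd5, mt-Nd6, mt-Cytb and mt-Atp8.

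Low levels per kilobase of exon were seen for the genes with copies of at least 99% identity over nearly their whole length. The exception was mt-Atp8, low without a copy. The whole length of mt-Co1 aligns to Gm13340 at 97.6% identity, and its level was the highest. Averaged over the 8 libraries, mt-Co1 stood at 4240 CPM per kilobase, mt-Nd1 at 1470, mt-Cytb at 1340, mt-Nd2 at 983, mt-Nd6 at 763, mt-Nd5 at 720 and mt-Nd4, with 63.6% of its length in a copy, at 538. For 5 genes, copies of at least 99% identity covered at least 98.99% of the length. These stood at 39.1 (mt-Co2), 30.6 (mt-Atp6), 23.1 (mt-Co3), 21.04 (mt-Nd3) and 14.2 (mt-Nd4l) CPM per kilobase. The exception, mt-Atp8, is only 204 bases long, shares 21.1% of its bases with mt-Atp6 and stood at 2.78 CPM per kilobase. The levels of mt-Nd4 and of the 5 genes with copies at that identity over nearly their whole length are therefore uncertain. That of mt-Atp8 rests on few counts. In each library mt-Co1 alone made up 48.8% to 52.9% of the counts of the 13 genes.

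**Figure D1:**
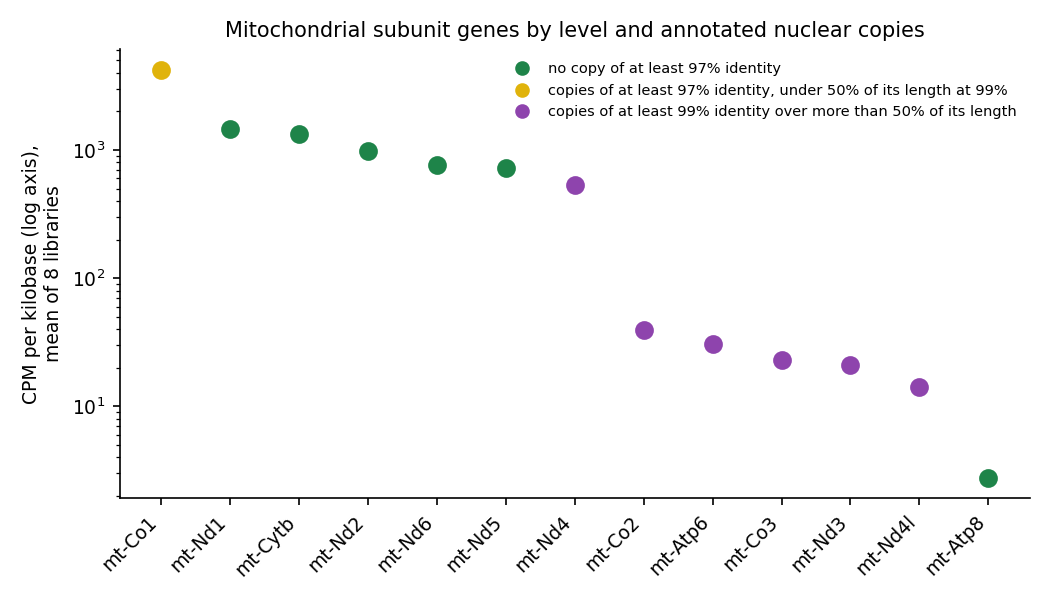
Level of each mitochondrial subunit gene, as the mean CPM per kilobase of the 8 libraries on a log axis, coloured by how much of its transcript has a close annotated copy. The 7 genes from mt-Co1 to mt-Nd4 sit above 500 CPM per kilobase. The 5 genes with copies of at least 99% identity over nearly their whole length sit between 14.2 and 39.1.

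Among nuclear genes the highest level in each complex was Cox8a at 216 CPM per kilobase in complex IV, Atp5a1 (the alpha subunit of the catalytic head) at 122 in the ATP synthase, Sdhd (a membrane anchor) at 78.9 in complex II, Ndufa2 at 74.6 in complex I and Uqcrh (the hinge protein) at 67.8 in complex III. The lowest tested were Cox6b2 at 0.716, Ndufa4l2 at 0.795, Atp5s at 4.11, Uqcrq at 18.7 and Sdhc at 28.5 CPM per kilobase. Several subunits have a widely used form and a tissue-restricted one, and the BMDMs held nearly all of the first. Cox6a1 stood at 160 against 1.63 CPM per kilobase for the muscle form Cox6a2. Cox7a2 stood at 43.4 against 2.62 for the muscle form Cox7a1, Cox6b1 at 131 against 0.716 for the testis form Cox6b2, and Ndufa4 at 39.3 against 0.795 for Ndufa4l2. Cox4i1 stood at 150 CPM per kilobase, whereas the lung form Cox4i2 did not pass the filter on low counts. The muscle form Cox8b did not pass either, and Cox8c and Cox7b2 had 0 counts throughout, beside 216 for Cox8a and 38.3 for Cox7b. Of the 3 genes that encode the same c subunit of the proton-driven ring, Atp5g2 stood at 64.3, Atp5g3 at 36.9 and Atp5g1 at 6.47 CPM per kilobase. Parts of Atp5g1 and Atp5g2 also have close copies. None of these tissue-restricted or c subunit genes was called in any of the 6 comparisons.

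To ask whether loss of Trex1 went with a change in the chain, Trex1-KO was first compared with WT. Most messenger RNAs from the mitochondrial genome were lower in Trex1-KO. A gene is called here when the edgeR quasi-likelihood F-test gives a false discovery rate (FDR, Benjamini-Hochberg over all 14591 genes) under 0.05. Of the 13 mitochondrial genes 8 were called, all lower, and of the 81 nuclear genes 2 were called, both lower. Over all tested genes 16.4% were called, and 7.11% were called lower. Thus 61.5% of the mitochondrial genes and 2.47% of the nuclear genes were called lower. The median log2 fold change was -0.38 over the mitochondrial genes, -0.14 over the nuclear genes and -0.002 over all genes. Both Trex1-KO libraries lay below both WT libraries for 12 of the 13 mitochondrial genes and for 34 of the 81 nuclear genes, beside 27.5% of all genes.

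The complex I genes of the mitochondrial genome encode the core of the membrane arm that moves protons, and 5 of the 7 were called lower in Trex1-KO against WT. For mt-Nd5 the level was 1659 and 1549 CPM in WT, 1198 and 1217 in Trex1-KO, 1371 and 1200 in Trex1-KO+H151, and 1148 and 1166 in Trex1-KO+SN-011. Every library from Trex1-KO mice lay below both WT libraries. The log2 fold change of Trex1-KO against WT was -0.41 (SE 0.06, n = 2 against 2, edgeR FDR 0.000372).

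For mt-Nd6, the only one of the 13 on the other strand of the mitochondrial genome, the level was 507 and 486 CPM in WT, 324 and 393 in Trex1-KO, 379 and 371 in Trex1-KO+H151, and 362 and 345 in Trex1-KO+SN-011. The groups again did not overlap with WT, and the log2 fold change in Trex1-KO was -0.47 (SE 0.08, edgeR FDR 0.00068). How strand was used in counting was not stated in the sources used here, so sense and antisense reads at mt-Nd6 cannot be told apart. For mt-Nd4 the level was 919 and 890 CPM in WT, 591 and 747 in Trex1-KO, 650 and 724 in Trex1-KO+H151, and 714 and 692 in Trex1-KO+SN-011. Its log2 fold change in Trex1-KO was -0.43 (SE 0.09, edgeR FDR 0.00325). The spread between the Trex1-KO libraries was wider here than for mt-Nd5, but both stayed below WT, and the log2 fold change was -0.29 without Trex1-KO replicate 1.

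Smaller falls were called for mt-Nd2, at 1166 and 1179 CPM in WT against 931 and 989 in Trex1-KO (-0.29, SE 0.05, edgeR FDR 0.0018), and for mt-Nd1, at 1591 and 1595 CPM against 1338 and 1357 CPM (-0.24, SE 0.05, edgeR FDR 0.00566). Of the low-count genes with copies, mt-Nd4l stood at 5.74 and 5.69 CPM in WT against 3.47 and 4.02 in Trex1-KO, and mt-Nd3 at 7.80 and 9.56 CPM against 6.26 and 6.92 CPM. Neither was called in Trex1-KO (edgeR FDR 0.0615 and 0.344).

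Complex III has 1 mitochondrial subunit, cytochrome b, which carries both quinone sites. Its gene mt-Cytb stood at 1858 and 1812 CPM in WT, 1446 and 1415 in Trex1-KO, 1611 and 1391 in Trex1-KO+H151, and 1359 and 1373 in Trex1-KO+SN-011. All 6 values from Trex1-KO mice lay below WT, and the log2 fold change in Trex1-KO was -0.36 (SE 0.06, edgeR FDR 0.00098).

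Complex IV takes its catalytic core from mt-Co1, mt-Co2 and mt-Co3. The most abundant gene, mt-Co1, stood at 7437 and 7285 CPM in WT, 6604 and 6149 in Trex1-KO, 7082 and 6031 in Trex1-KO+H151, and 5937 and 5883 in Trex1-KO+SN-011. It was the smallest of the called falls among the mitochondrial genes, with a log2 fold change of -0.21 in Trex1-KO (SE 0.06, edgeR FDR 0.0389). The call was lost without either WT library, without Trex1-KO replicate 2, without either SN-011 library and with the DESeq2 and edgeR exact tests. The copy-bearing mt-Co2 (30.4 and 30.9 CPM in WT, 20.3 and 26.6 in Trex1-KO) and mt-Co3 (20.02 and 20.7 CPM against 17.2 and 17.9 CPM) had log2 fold changes of -0.38 and -0.21 and were not called (edgeR FDR 0.0882 and 0.228).

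In the ATP synthase, mt-Atp6 encodes the subunit through which protons return, and it stood at 27.5 and 25.1 CPM in WT, 15.9 and 20.05 in Trex1-KO, 18.6 and 18.3 in Trex1-KO+H151, and 19.3 and 21.9 in Trex1-KO+SN-011. Its fall of 0.54 on the log2 scale in Trex1-KO was called (SE 0.13, edgeR FDR 0.00847), but not without WT replicate 1 (-0.49) or without Trex1-KO replicate 1 (-0.40). With 65 counts over all libraries, mt-Atp8 stood at 0.368 and 0.746 CPM in WT and at 0.377 and 0.791 in Trex1-KO, and no difference was detectable at this depth (log2 fold change 0.08, SE 0.58, edgeR FDR 0.956).

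Of the 6 nuclear copies 3 were called lower in Trex1-KO, and the other 3 had log2 fold changes from -0.61 to -0.34 that did not pass, beside the 7.11% of all genes called lower. The copy Gm28437 of mt-Co3 stood at 49.4 and 43.4 CPM in WT against 28.5 and 33.8 in Trex1-KO, with a log2 fold change of -0.57 (SE 0.10, edgeR FDR 0.0017). For Gm28661, the copy of mt-Co2, the level was 50.6 and 51.6 CPM in WT against 29.9 and 42.3 in Trex1-KO (-0.50, SE 0.15, edgeR FDR 0.0414). The third was Gm28439, the copy of part of mt-Nd4 (-0.55, SE 0.16, edgeR FDR 0.0362). Whether reads counted at a copy came from the copy or from mitochondrial RNA was not tested. In all 8 libraries 4 of the 6 copies stood at a higher CPM than the mitochondrial gene itself, those of mt-Atp6 (Gm10925), mt-Co2, mt-Co3 and mt-Nd4l (Gm10222). When the counts of each of the 6 genes and of its copy were added, the log2 ratio of the Trex1-KO mean to the WT mean ran from -0.48 (mt-Nd3) to -0.42 (mt-Atp6).

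**Figure D2:**
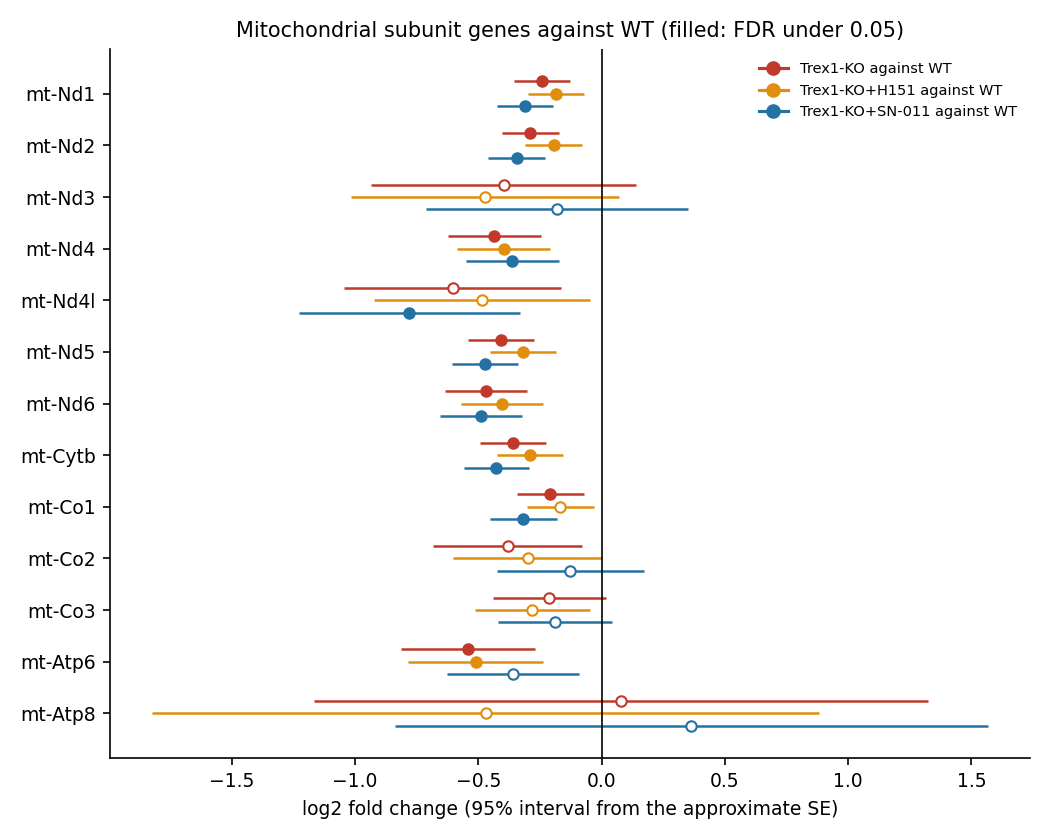
Log2 fold change against WT of the 13 mitochondrial subunit genes in Trex1-KO, Trex1-KO+H151 and Trex1-KO+SN-011, with 95% intervals from the approximate SE and filled points for FDR under 0.05. The abundant genes have narrow intervals below 0, and mt-Atp8, with 65 counts in all, has the widest.

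Among the nuclear genes the called falls in Trex1-KO were Ndufa4 and Atp5a1. Ndufa4, which is named for complex I but was later placed in complex IV, stood at 64.6 and 59.6 CPM in WT, 47.9 and 52.2 in Trex1-KO, 42.9 and 51.1 in Trex1-KO+H151, and 59.6 and 55.9 in Trex1-KO+SN-011. Its log2 fold change in Trex1-KO was -0.31 (SE 0.09, edgeR FDR 0.0349). Atp5a1 stood at 428 and 415 CPM in WT, 360 and 382 in Trex1-KO, 347 and 369 in Trex1-KO+H151, and 382 and 381 in Trex1-KO+SN-011, with a log2 fold change of -0.18 in Trex1-KO (SE 0.06, edgeR FDR 0.0413). Both genes lay lower in Trex1-KO than in WT without overlap. Neither call was kept when Trex1-KO replicate 1 was left out (-0.26 and -0.15), nor when either WT library was left out. The Ndufa4 call was also lost without SN-011 replicate 1, and the Atp5a1 call without Trex1-KO replicate 2 or either SN-011 library. The DESeq2 Wald test called neither, and the Atp5a1 call was also lost with the edgeR exact test and in a fit of the 2 groups alone. Over all members, 6 were called without WT replicate 1 (beside 10.2% of all genes in that fit), 19 without Trex1-KO replicate 2 (12.7%), 18 without H151 replicate 1 (17.2%) and 16 without H151 replicate 2 (17.5%).

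By complex, the median log2 fold change of nuclear genes in Trex1-KO against WT was -0.14 in complex I, 0.02 in complex II, -0.17 in complex III, -0.14 in complex IV and -0.14 in the ATP synthase. Complex II, which oxidizes succinate and is also an enzyme of the tricarboxylic acid cycle, had no called gene in any comparison. The flavoprotein Sdha stood at 208 and 223 CPM in WT and at 197 and 226 in Trex1-KO (log2 fold change -0.03, SE 0.09, edgeR FDR 0.901). The iron-sulfur subunit Sdhb stood at 70.7 and 75.8 CPM against 70.1 and 85.5 CPM. The membrane anchors were Sdhc, at 92.6 and 88.8 CPM against 99.8 and 91.5 CPM, and Sdhd, at 93.6 and 102 CPM against 87.3 and 97.01 CPM. WT and Trex1-KO overlapped for each of these 4 genes.

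The nuclear genes differed between libraries of the same group. Summed over the nuclear genes, the level was 5539 and 5523 CPM in WT, 4680 and 5364 in Trex1-KO, 4437 and 5293 in Trex1-KO+H151, and 5653 and 5475 in Trex1-KO+SN-011. Replicate 1 of Trex1-KO and replicate 1 of Trex1-KO+H151 were the lowest 2 of the 8 libraries. Summed over the mitochondrial genes, the level was 15228 and 14889 CPM in WT, 12494 and 12345 in Trex1-KO, 13688 and 12116 in Trex1-KO+H151, and 11795 and 11755 in Trex1-KO+SN-011. Here both WT libraries were highest and both SN-011 libraries lowest. The ratio of the mitochondrial to the nuclear sum was 2.75 and 2.70 in WT, 2.67 and 2.30 in Trex1-KO, 3.08 and 2.29 in Trex1-KO+H151, and 2.09 and 2.15 in Trex1-KO+SN-011. The highest ratio of all was thus in a library whose mitochondrial sum was below WT, since its nuclear sum was the lowest.

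**Figure D3:**
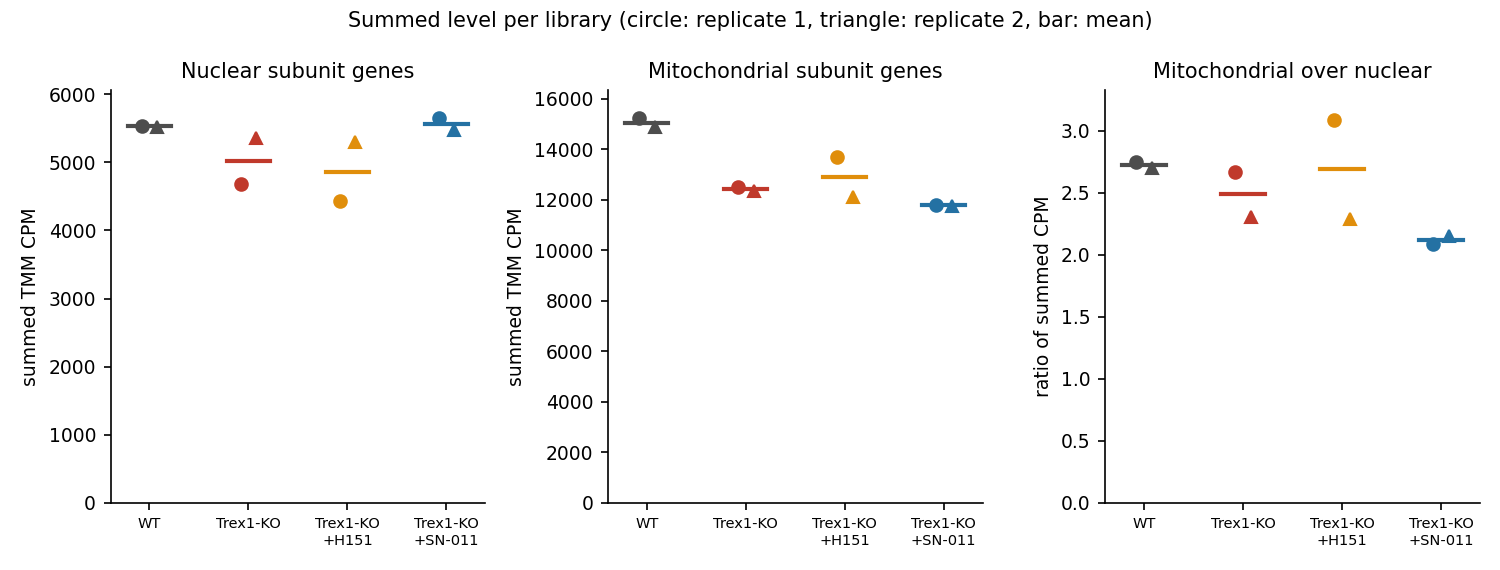
Summed TMM CPM of the 86 nuclear and the 13 mitochondrial genes in each library, and the ratio of the mitochondrial to the nuclear sum, with circles for replicate 1, triangles for replicate 2 and bars for the mean of 2. Replicate 1 of Trex1-KO (4680 CPM) and of Trex1-KO+H151 (4437 CPM) lie lowest for nuclear genes, and all 6 libraries from Trex1-KO mice lie below WT for mitochondrial genes.

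Gene by gene, the log2 difference of replicate 1 from replicate 2 had a median of -0.23 over the nuclear genes in Trex1-KO, with 75 of 81 lower in replicate 1, and of -0.27 in Trex1-KO+H151, with 69 of 81 lower. Over the 13 mitochondrial genes the median was -0.13 in Trex1-KO, with 11 lower in replicate 1, and 0.02 in Trex1-KO+H151, with 5 lower. Without mt-Co1, the most abundant of them, the mitochondrial sum was 5890 CPM in replicate 1 and 6195 in replicate 2 of Trex1-KO, and 6606 and 6085 in Trex1-KO+H151. In WT the nuclear median was -0.003 with 41 of 81 lower, and in Trex1-KO+SN-011 it was 0.06 with 23 of 81 lower. Over all other tested genes the median lay between -0.001 and 0.01 in the 4 groups. The differences in Trex1-KO and in Trex1-KO+H151 followed each other across the 81 genes (Pearson r 0.82, beside 0.24 over all tested genes), whereas the 5 other pairs of groups gave r from -0.21 to 0.17. Genes within a library share its depth and preparation, so these values are descriptions.

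The genes that differed most, chosen after their values were seen, were accessory subunits with short transcripts. Ndufs6, an accessory subunit of the electron input module of complex I, stood at 8.22 CPM in Trex1-KO replicate 1 and 7.33 CPM in Trex1-KO+H151 replicate 1 and at 18.3 to 20.1 CPM in the other 6 libraries. Uqcr11, a small accessory subunit of complex III, stood at 18.03 and 17.6 CPM in those 2 libraries and at 34.3 to 42.1 CPM in the others. Ndufa1, a membrane subunit of complex I encoded on the X chromosome, stood at 11.6 and 9.21 CPM in those 2 libraries and at 17.7 to 25.5 CPM in the others. For none of these genes did the other 6 libraries reach down to the level of those 2. The Spearman correlation of the replicate difference with transcript length over the nuclear genes was 0.36 in Trex1-KO and 0.43 in Trex1-KO+H151, against 0.09 in WT and 0.02 in Trex1-KO+SN-011.

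Length moved with the difference in other genes too. For all other tested genes length was taken as the total of all exons. Under 700 bases their median difference was -0.11 in Trex1-KO and -0.15 in Trex1-KO+H151, and over 2500 bases it was 0.02 in both. Nuclear chain genes whose longest coding transcript was under 700 bases stood at -0.27 and -0.32. The length measures differ, so these classes are not alike. The part of transcript length in these differences was not tested.

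**Figure D4:**
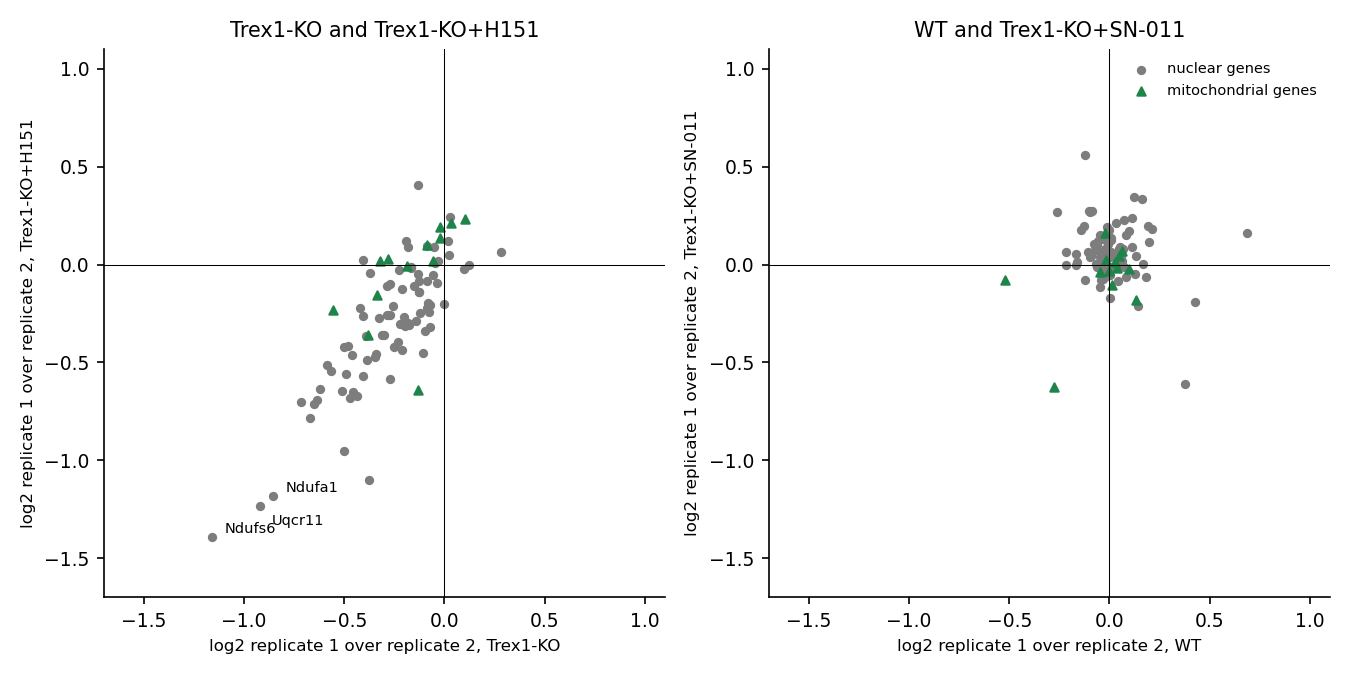
Log2 ratio of replicate 1 to replicate 2 for each tested gene, with Trex1-KO against Trex1-KO+H151 on the left and WT against Trex1-KO+SN-011 on the right, and with triangles for mitochondrial genes. Nuclear genes spread along the diagonal on the left, down to Ndufs6 at -1.16 and -1.39, and lie around 0 on the right.

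Because 2 libraries set much of the nuclear result, the comparison was repeated without both of them, an alternative added after these values were seen. Against WT, Trex1-KO then had 9 called genes, 8 mitochondrial and 1 nuclear, all lower, beside 14.9% of all genes. The nuclear median moved from -0.14 to -0.04, and the mitochondrial median from -0.38 to -0.29. In that fit a single Trex1-KO library stood against 2 WT libraries, and it was assumed to vary like the other groups. Without Trex1-KO replicate 2 in its place, the nuclear median was -0.24 and 11 nuclear genes were called, beside 12.7% of all genes.

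The upstream sequence of the nuclear genes was then examined. NRF1 is a transcription factor known for its sites in respiratory chain genes, and its motif (GCGCA and GCGC with any base between) was searched on both strands in the 250 bases before each start in the RefSeq promoters (build GRCm38.p6), in which 68 of the 86 nuclear genes were found. It occurred before 13 of them (19.1%), beside 4.23% of 27025 genes. The ETS motif CCGGAAGT, bound by the GABP factor, occurred before 3 (4.41%, beside 3.23% of all genes), and the YY1 motif (AAGATGG followed directly by CGGC) before 0 (beside 0.248%). The windows below, written 5′ to 3′ along the gene with the motif in capitals, belong to the motif-bearing genes that differed most between replicates and to Atp5c1, which is described further on, and were chosen after these values were seen.

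Ndufs6 (chr13:73328483-73328513, minus strand): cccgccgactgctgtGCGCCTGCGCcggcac

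Ndufa8 (chr2:36049344-36049383, minus strand): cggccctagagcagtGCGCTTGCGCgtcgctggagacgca

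Atp5k (chr5:108434425-108434464, minus strand): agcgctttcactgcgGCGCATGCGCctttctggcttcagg

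Atp5c1 (chr2:10080433-10080464, minus strand): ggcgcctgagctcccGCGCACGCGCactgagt

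Uqcr11 (chr10:80406865-80406902, minus strand): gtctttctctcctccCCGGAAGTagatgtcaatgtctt

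In Ndufs6 and Ndufa8 the capitals match the motif on the opposite strand. Uqcr11 carries the ETS motif and no NRF1 motif in this window. The 13 genes with the NRF1 motif did not all move with these: Ndufa11 was higher in replicate 1 in both groups (0.28 and 0.07), and Atp5g2 differed by 0.10 and -0.02. The median difference of the 13 was -0.21 in Trex1-KO and -0.32 in Trex1-KO+H151, beside -0.23 and -0.26 for the other nuclear genes. Those others include genes whose promoter was not found and so not searched. A match is a description of the letters only.

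To ask whether blocking STING changed these genes, each antagonist was compared with Trex1-KO. With H151 no member was called, beside 2.23% of all genes. At an unadjusted p under 0.05 there was 1 member (Cyc1, log2 fold change 0.21, edgeR FDR 0.513), beside 9.36% of all genes, and the DESeq2 and edgeR exact tests called 0. The median log2 fold change was -0.04 over the nuclear genes and 0.06 over the mitochondrial genes, and the direction of both turned with the libraries used. The nuclear median was -0.15 without Trex1-KO replicate 1, 0.10 without Trex1-KO replicate 2, 0.10 without H151 replicate 1 (1 member called, beside 1.66% of all genes) and -0.20 without H151 replicate 2 (2 called, beside 2.35%). The mitochondrial median was -0.07 without Trex1-KO replicate 1. For mt-Nd5 the log2 fold change of Trex1-KO+H151 against Trex1-KO was 0.09 (95% interval -0.04 to 0.22), and for mt-Cytb it was 0.07 (-0.06 to 0.20). The replicate 1 library of H151 lay above both Trex1-KO libraries and the replicate 2 library did not, for both genes.

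With SN-011 no member was called against Trex1-KO either, beside 2.33% of all genes called, while 13 nuclear and 0 mitochondrial genes had an unadjusted p under 0.05, beside 12% of all genes. The DESeq2 and edgeR exact tests called 1 each. The lowest p belonged to Ndufa6, an accessory complex I subunit (log2 fold change 0.43, SE 0.11, edgeR FDR 0.063). The nuclear median was 0.16 and the mitochondrial median -0.02, and both SN-011 libraries lay above both Trex1-KO libraries for 43 of 81 nuclear genes, beside 21.8% of all genes. Without Trex1-KO replicate 1 the nuclear median was 0.06 with 0 members called, and without Trex1-KO replicate 2 it was 0.29 with 4 called, beside 1.3% and 1.99% of all genes. The mitochondrial median changed sign, from -0.07 without Trex1-KO replicate 1 to 0.05 without Trex1-KO replicate 2, whereas the nuclear median stayed above 0. Without H151 replicate 1 or replicate 2, 4 members were called, beside 3.11% and 3.25% of all genes. For mt-Nd5 the log2 fold change was -0.06 (95% interval -0.20 to 0.07) and for mt-Cytb -0.07 (-0.20 to 0.07). For these 2 genes the interval does not reach the size of the fall between WT and Trex1-KO in the opposite direction. Over all 13 mitochondrial genes the log2 fold changes ran from -0.18 to 0.29, with 7 below 0.

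The antagonists were then set against each other for the 94 tested genes, which makes 1 pair of compounds, given for the same time and, per the study methods, at the same dose. No member was called, beside 0.158% of all genes, whereas 30 members had an unadjusted p under 0.05 (8.91% of all genes did) and the DESeq2 and edgeR exact tests called 0 and 1. The median log2 fold change of SN-011 against H151 was 0.19 over the nuclear and -0.09 over the mitochondrial genes. Both SN-011 libraries lay above both H151 libraries for 43 of 81 nuclear genes, beside 19.7% of all genes. The size of the nuclear median depended on H151 replicate 1. Without it the nuclear median was 0.06 with 0 members called, and without H151 replicate 2 it was 0.34 with 28 members called, 25 of them nuclear, beside 1.92% of all genes called in that fit. The mitochondrial median was -0.03 without H151 replicate 1 and -0.05 without SN-011 replicate 2. For mt-Co1 the log2 fold change of SN-011 against H151 was -0.15 (95% interval -0.29 to -0.01, edgeR FDR 0.532). Its levels were 7082 and 6031 CPM with H151 and 5937 and 5883 CPM with SN-011, so H151 replicate 1 set much of this difference.

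**Figure D5:**
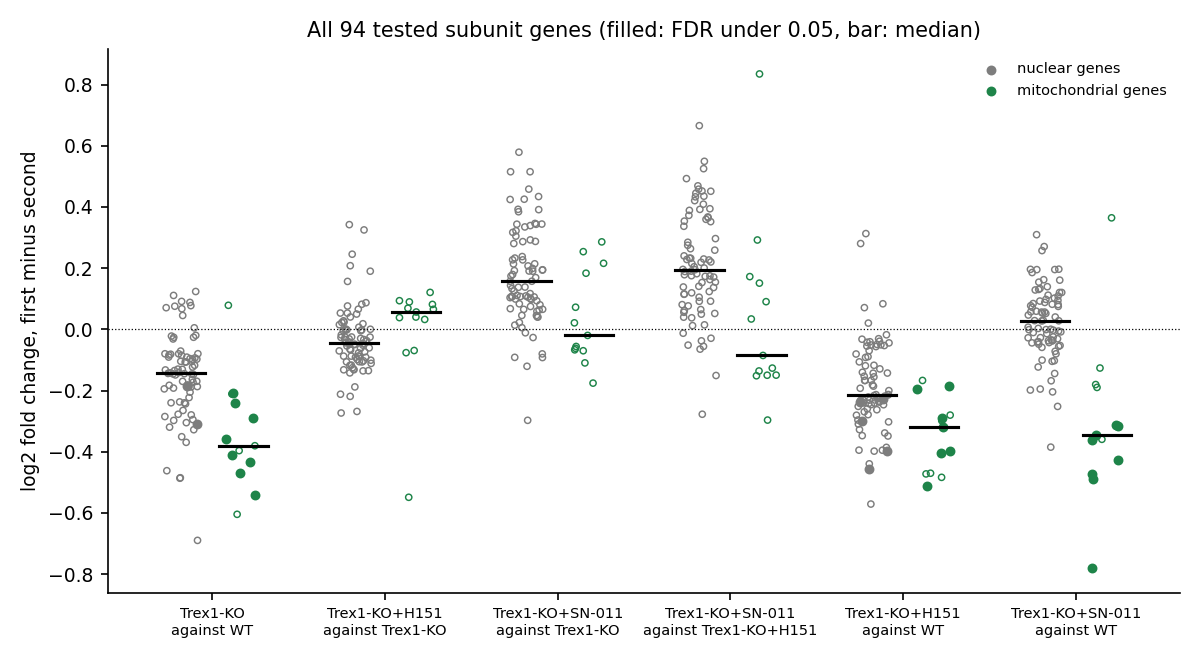
Log2 fold change of each of the 94 tested genes in the 6 comparisons, in grey for nuclear and in green for mitochondrial genes, with filled points for FDR under 0.05 and bars for the median. Filled points occur only in the 3 comparisons with WT, all below 0, and in Trex1-KO+SN-011 against WT they are all mitochondrial.

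The antagonist groups were also compared with WT. These comparisons share the WT libraries with that of Trex1-KO, so each is given by its own values. In Trex1-KO+H151 against WT 12 members were called, all lower, beside 11.8% of all genes and 5.04% called lower. They were 7 of 13 mitochondrial genes (mt-Nd1, mt-Nd2, mt-Nd4, mt-Nd5, mt-Nd6, mt-Cytb and mt-Atp6) and 5 of 81 nuclear genes. For mt-Nd5 the log2 fold change was -0.32 (SE 0.06, edgeR FDR 0.00362), for mt-Nd6 -0.40 (SE 0.08, edgeR FDR 0.00313) and for mt-Atp6 -0.51 (SE 0.13, edgeR FDR 0.0169). The nuclear genes were Ndufc2, an accessory subunit of the complex I membrane arm (-0.46, SE 0.13, edgeR FDR 0.0411), Ndufa4 (-0.40, SE 0.09, edgeR FDR 0.012), Cox6c (-0.30, SE 0.09, edgeR FDR 0.0421), Atp5a1 (-0.24, SE 0.06, edgeR FDR 0.0146) and Atp5c1, the gamma subunit that forms the rotating stalk, named here after its value was seen (-0.23, SE 0.07, edgeR FDR 0.0404).

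Ndufc2 stood at 50.0 and 51.2 CPM in WT and at 30.9 and 42.5 in Trex1-KO+H151, so that its log2 fold change was -0.26 without H151 replicate 1 and -0.72 without H151 replicate 2. The level of Atp5c1 was 137 and 129 CPM against 111 and 115 CPM. Without H151 replicate 1 no nuclear gene was called and 8 mitochondrial genes were, beside 8.61% of all genes. Without H151 replicate 2, 43 members were called, of which 37 were nuclear, beside 11.7% of all genes in that fit. Without WT replicate 1, 3 were called (6.38% of all genes), and all 3 were mitochondrial. Without WT replicate 2, 7 were called (7.22%), as without SN-011 replicate 1 (10.1%) and replicate 2 (9.82%), and without Trex1-KO replicate 1, 18 were called (11.5%). The calls of mt-Nd1 and mt-Nd2 were lost without either WT library, without H151 replicate 2 and without either SN-011 library, and those of mt-Nd4 and mt-Atp6 without WT replicate 1. Both mt-Nd1 and mt-Nd2 also lost their calls with the edgeR exact test and in a fit of the 2 groups alone, each of which called 5 mitochondrial genes, and the DESeq2 Wald test did not call mt-Nd1, Cox6c or Atp5c1. The Atp5c1 call was lost in the fit of the 2 groups as well.

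In Trex1-KO+SN-011 against WT 8 members were called, all lower and all mitochondrial, beside 11.7% of all genes and 5.57% called lower. None of the 81 nuclear genes was called, with 1 at an unadjusted p under 0.05 (22.7% of all genes) and 0 by DESeq2 or the edgeR exact test, and their median was 0.03 (-0.01 without SN-011 replicate 1 and -0.002 without WT replicate 2). The mitochondrial median was -0.34. The called genes were mt-Nd5 (-0.47, SE 0.06, edgeR FDR 0.000179), mt-Cytb (-0.43, SE 0.06, edgeR FDR 0.000381), mt-Nd2 (-0.34), mt-Nd6 (-0.49), mt-Nd1 (-0.31), mt-Co1 (-0.32), mt-Nd4 (-0.36) and mt-Nd4l (-0.78). The last of these stood at 5.74 and 5.69 CPM in WT and 3.20 and 3.48 CPM in Trex1-KO+SN-011. Leaving out SN-011 replicate 1 or replicate 2 left 5 members called, beside 6.96% and 5.95% of all genes, and leaving out WT replicate 1 or replicate 2 left 6, beside 6.28% and 7.67%. The calls of mt-Nd4 and mt-Nd4l were lost in each of these 4 fits, that of mt-Nd4l also with the DESeq2 Wald test, and that of mt-Co1 without either SN-011 library.

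Over all libraries, the 6 from Trex1-KO mice lay below both WT libraries for 11 of the 13 mitochondrial genes and for 8 of the 81 nuclear genes, beside 13.7% of all tested genes. The 2 mitochondrial genes without this order were mt-Nd3 and mt-Atp8, both with few counts. In each of the 3 comparisons with WT, mt-Nd5, mt-Nd6 and mt-Cytb were called under all 18 alternatives, which leave out each library in turn or change the scaling, the filter on low counts or the test. The SE in Trex1-KO against WT was 0.05 to 0.13 for the 8 called mitochondrial genes, beside a median of 0.11 over the nuclear genes, and its part in how many genes of each genome were called was not tested.

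Of the 88 tested genes of 4 further lists of the same system, 4 were called in Trex1-KO against WT, beside 16.4% of all genes, and 15 had an unadjusted p under 0.05, beside 27.2%. Of 44 tested assembly factors, which build the complexes, 1 was called, Coa5 (a complex IV assembly factor), higher at 0.27 on the log2 scale (SE 0.06, edgeR FDR 0.00623). Of 23 genes that copy or transcribe mitochondrial DNA or act on its RNA, 1 was called, Pnpt1. It encodes a mitochondrial RNA exonuclease and is also known as an interferon-responsive gene. Pnpt1 stood at 33.9 and 30.6 CPM in WT, 51.7 and 45.5 in Trex1-KO, 40.2 and 36.9 in Trex1-KO+H151, and 38.1 and 35.9 in Trex1-KO+SN-011, and rose by 0.59 on the log2 scale in Trex1-KO (SE 0.10, edgeR FDR 0.00065). None of 8 tested nuclear regulators was called, and of 13 tricarboxylic acid cycle genes 2 were lower, Fh1 (fumarate hydratase, -0.32, SE 0.07, edgeR FDR 0.00552) and Idh3g (a subunit of isocitrate dehydrogenase, -0.21, SE 0.06, edgeR FDR 0.024). The median log2 fold change was -0.07 for assembly factors, -0.07 for mitochondrial gene expression, -0.07 for regulators and -0.01 for the cycle.

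Of the 88 tested genes of these lists, edgeR called 0 with H151 against Trex1-KO (9 at an unadjusted p under 0.05), 0 with H151 against WT (5), 0 with SN-011 against Trex1-KO (10) and 0 with SN-011 against H151 (7). Over all genes, 9.36%, 24.2%, 12% and 8.91% had such a p in these comparisons. In Trex1-KO+SN-011 against WT edgeR called 4 of the 88, beside 11.7% of all genes, and 5 had an unadjusted p under 0.05, beside 22.7%. Among those called, Tmem126b (an assembly factor of complex I) was higher at 0.35 (SE 0.10, edgeR FDR 0.0314). Lower were Gabpb1, a subunit of the GABP factor (-0.42, SE 0.13, edgeR FDR 0.0493), Tfam, which packages and transcribes mitochondrial DNA (-0.37, SE 0.11, edgeR FDR 0.0473), and Fh1 (-0.25, SE 0.07, edgeR FDR 0.033). Tfam stood at 32.5 and 26.9 CPM in WT, 26.1 and 25.1 in Trex1-KO, 26.3 and 28.3 in Trex1-KO+H151, and 21.7 and 24.2 in Trex1-KO+SN-011, so that only the SN-011 group and the Trex1-KO group lay wholly below WT.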

How the data were processed

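RNA was measured in 8 libraries, grouped by the sample titles. The authors trimmed read pairs with Trimmomatic, aligned them with hisat2 and counted uniquely mapped pairs per gene, and the deposited values are raw counts without normalization. The methods name featureCounts and the submitters' processing notes HTSeq and mm10, with versions and strand setting not given in the sources used here. Symbols and positions came from GENCODE mouse release 21, which held 54495 of 54532 identifiers.

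Counts were tested in R 4.3.3 with edgeR 4.0.16. filterByExpr (minimum count 10, minimum total 15) kept 14591, which were fitted with TMM factors over the 8 libraries, with a mean for each group, and 6 contrasts were tested by two-sided quasi-likelihood F-tests at FDR 0.05. SE was taken from the log2 fold change and F and is approximate. A floor of 3 counts was 0.175 to 0.255 CPM, for counting error only. Replicate differences used an offset of 0.5. DESeq2 1.42.0 was an alternative. The fit was tested on simulated data. Copies were found with BLAST at 97% identity over at least 100 bases.

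Members and lists were chosen with earlier results of these data known. Genes named are mitochondrial members, Sdha to Sdhd, called members with the 8 largest rises and falls per contrast, the highest and lowest level in each complex, isoform sets, and up to 3 called genes each way per list. Others are said to be chosen after their values were seen.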

Additional observations from a re-analysis of the deposited data

How the results depend on the processing

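Among the 6 comparisons, 18 alternatives each, no direction of a called gene reversed. The count of called members changed by over 1.5 times as follows. With total counts only it was 22 in Trex1-KO against WT, 22 in Trex1-KO+H151 against WT and 1 in Trex1-KO+SN-011 against Trex1-KO, beside 17.4%, 11.7% and 2.04% of all genes. With every gene of at least 1 count kept it was 23, 31 and 12 for the same 3 comparisons and 20 in SN-011 against H151, beside 10.1%, 8.15%, 2.51% and 0.983% of all genes. For SN-011 against Trex1-KO the DESeq2 Wald test gave 1, the edgeR exact test 1 and a fit of the 2 groups alone 3 (2.19%, 3.32% and 3.07%), and the edgeR exact test gave 1 for SN-011 against H151 (0.576%). Leaving out each library in turn gave 6 to 19 called members in Trex1-KO against WT, 3 to 43 in Trex1-KO+H151 against WT, 5 to 9 in Trex1-KO+SN-011 against WT, 0 to 2 in Trex1-KO+H151 against Trex1-KO, 0 to 4 in Trex1-KO+SN-011 against Trex1-KO and 0 to 28 in SN-011 against H151. It moved the nuclear median of H151 against Trex1-KO over -0.20 to 0.098 and the mitochondrial median over -0.067 to 0.10. The log2 ratio of the mitochondrial to the nuclear sum ranged from -0.12 to 0.32 for H151 against Trex1-KO, from -0.54 to -0.11 for SN-011 against H151 and from -0.25 to 0.18 for H151 against WT. Without both replicate 1 libraries of Trex1-KO and Trex1-KO+H151, added after seeing the data, it was -0.11 and -0.25 for the last 2. The cause of these shifts was not tested.

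Replicate numbers are in the titles, and what they mark is not said. With the replicate number as a block, the pairing gave 13 called members in Trex1-KO against WT, 19 in Trex1-KO+H151 against WT, 8 in Trex1-KO+SN-011 against WT, 0 in H151 against Trex1-KO, 2 in SN-011 against Trex1-KO and 1 in SN-011 against H151, beside 17.9%, 13.3%, 12.9%, 2.82%, 2.99% and 0.302% of all genes. Over all tested genes the deviations of same-numbered libraries correlated at 0.24 between Trex1-KO and Trex1-KO+H151. The other pairs of groups gave values from -0.03 to 0.07, with -0.02 between Trex1-KO and Trex1-KO+SN-011. A pairing across all groups was thus not established, and the origin of the value of 0.24 was not tested. With 2 libraries a group, levels under about 1 CPM, such as mt-Atp8, gave no usable precision.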

Other observations

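The mitochondrial genome also encodes RNAs that are not translated, and these lists were chosen after other values of these data were seen. Of the 2 ribosomal RNAs, mt-Rnr2 stood at 624 and 630 CPM in WT, 344 and 359 in Trex1-KO, 396 and 417 in Trex1-KO+H151, and 444 and 430 in Trex1-KO+SN-011. Its fall in Trex1-KO against WT, by 0.83 on the log2 scale (SE 0.05, edgeR FDR 1.47e-07), was larger than that of any of the 13 subunit messenger RNAs. Against Trex1-KO it was higher with SN-011 by 0.31 (SE 0.05, edgeR FDR 0.0056), where no subunit gene was called. The other, mt-Rnr1, stood at 432 and 453 CPM in WT against 358 and 337 in Trex1-KO (-0.35, SE 0.06, edgeR FDR 0.000859).

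Of 22 mitochondrial transfer RNAs 10 were tested, and 2 were called lower in Trex1-KO against WT (7.11% of all genes were), mt-Tn (-0.58, SE 0.16, edgeR FDR 0.0211) and mt-Tp (-0.61, SE 0.10, edgeR FDR 0.000628). Ribosomal and transfer RNAs reach libraries made from polyadenylated RNA only in part, and nuclear copies of these genes were not searched for.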
